A study of Mus musculus with 6 samples.

Results

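The genes of the Z-disc and of the giant filament proteins of the sarcomere were followed through the growth of a mouse calf muscle. They are 10 genes, Actn2, Actn3, Ttn, Neb, Myoz1, Myoz2, Myoz3, Tcap, Ldb3 and Myot, taken by symbol from a table of 23367 gene entries, and all 10 passed the filter on low counts. Poly(A) RNA came from gastrocnemius of wild type FVB mice at embryonic day 18.5 (E18.5), postnatal days 2, 14 and 28 (PN2, PN14, PN28) and in the adult at 22 weeks, with no treatment at any stage. PN14 had 2 libraries, each from 1 mouse, and the other 4 stages had 1 library each. E18.5 was a pool of male and female animals, PN2 was a pool of males, and the remaining libraries each came from a single male, so stage, pooling, sex and, by the column names, sequencing lane cannot be told apart.

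The Z-disc is the protein lattice that borders each sarcomere and anchors the thin filaments of actin. Alpha-actinins cross-link the actin ends there, titin spans from the Z-disc to the middle of the sarcomere, nebulin runs along the thin filament, and telethonin (Tcap) binds the end of titin in the Z-disc. Myozenins, myotilin and the PDZ-LIM protein encoded by Ldb3 bind alpha-actinin, and myozenins also bind the phosphatase calcineurin. In mouse muscle Actn3 and Myoz1 are known as fast-fibre genes, Myoz2 is known for slow fibres and heart, and Actn2 is made in all fibres.

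Between 125402932 and 157868359 counts fell on genes in each library, and the 10 genes took 1.2% of them at E18.5, 1.48% at PN2, 2.82% and 2.2% at PN14, 3.17% at PN28 and 3.36% in adult muscle. Levels are given as FPKM, fragments per kilobase of gene scaled to the size of the library, which can be set side by side between genes. Differences between stages are log2 fold changes of counts scaled with TMM, a factor computed so that most genes do not shift, each with its standard error (SE). A gene was called, and is said to have risen or fallen, at a Benjamini-Hochberg adjusted p under 0.05 over the 16882 genes tested and a change of at least 2-fold. The only replicate spread was that of the PN14 pair, which stood for every stage, so the p-values measure no spread between animals at the other stages. TMM and library size alone placed the stages differently: from E18.5 to adult the median over all genes tested stood at -0.05 (log2) in TMM units and at -1.08 when only library size was used. A level that is flat in TMM units is thus lower in FPKM in the older libraries.

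The libraries carried the defining markers of skeletal muscle. The summed FPKM of Ckm, Acta1, Des and Ryr1, markers of skeletal fibres, was 17514.5 at E18.5, 45887.3 and 57922.2 at PN14 and 50350.1 in the adult, whereas that of 4 cardiac markers stayed between 13.9 and 52.6. Fast fibre markers summed to 23586.3 at E18.5, 95705.1 and 83200.0 at PN14 and 96637.6 in the adult. Slow fibre markers summed to 2733.1 at E18.5, were higher at PN14 with 4053.2 and 3205.4, and stood at 1248.8 in the adult. The summed FPKM of 6 fibroblast markers went from 6086.5 at E18.5 to 515.9 in the adult. In this bulk tissue a smaller share of cells of a type and less RNA per cell cannot be told apart.

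**Figure D1:**
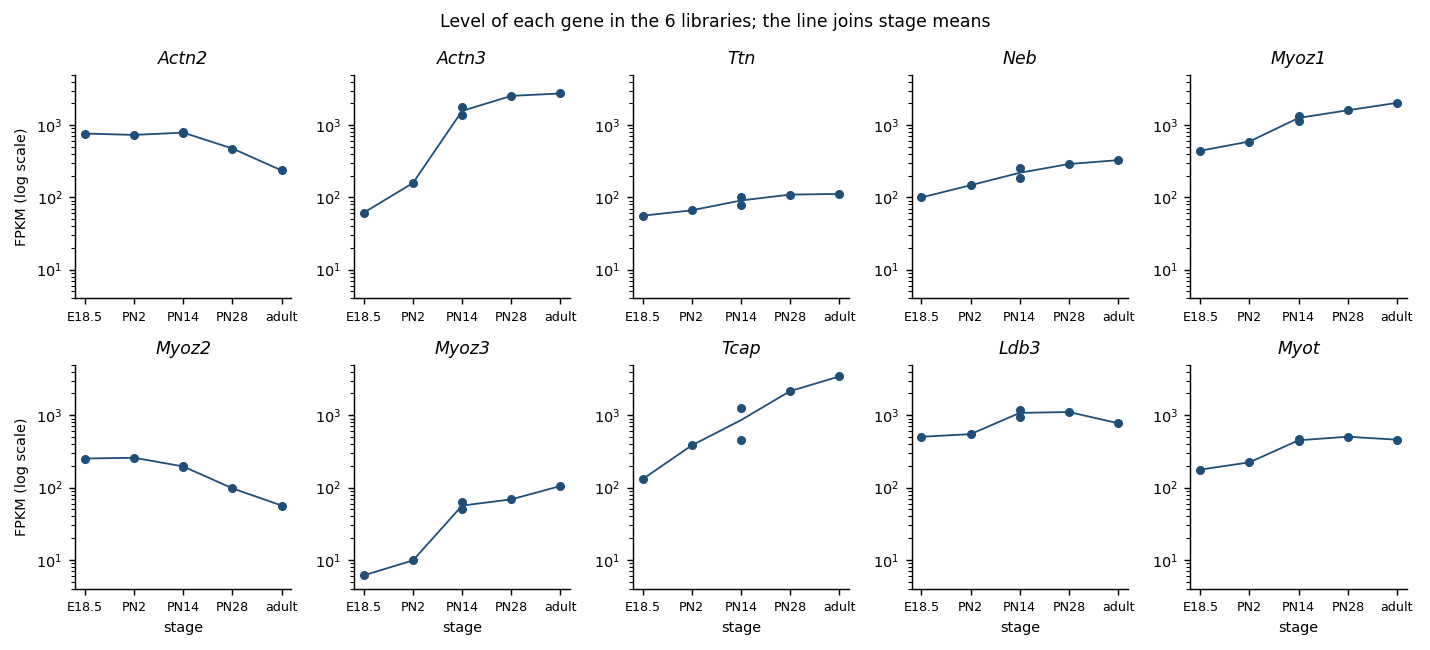
FPKM of each of the 10 genes (log axis) against stage, with a point for each of the 6 libraries and a line through the stage means. Actn3, Myoz3 and Tcap climb furthest, and Actn2 and Myoz2 are lower in the adult than at E18.5.

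The largest differences within the group lay between E18.5 and adult, where by edgeR's quasi-likelihood test with TMM 5 genes rose (Actn3, Myoz1, Myoz3, Tcap and Myot) and 1 fell (Myoz2). Of all genes tested, 21.4% rose and 23.6% fell in that comparison. When only library size was used 7 rose and 2 fell, Actn2 as well as Myoz2, beside 7.98% and 45.6% of all genes. From PN2 to PN28 the same 5 genes rose and none of the 10 fell with TMM, against 14.3% and 12.7% of all genes. Library size as the only scaling gave 5 that rose and 1 that fell, Myoz2, beside 5.05% and 37.3% of all genes. Actn3, Myoz3 and Myot were already called as higher from PN2 to PN14, where 11.8% of all genes rose and 11.2% fell. No member was called between E18.5 and PN2, between PN14 and PN28 or between PN28 and adult by edgeR's quasi-likelihood test. The unadjusted p was under 0.05 for 0, 1 and 0 members in those intervals. Library size alone called Actn3 and Tcap as higher from E18.5 to PN2 (0.817% of all genes) and Tcap from PN14 to PN28 (0.557%). DESeq2's Wald test called Actn3 from E18.5 to PN2, and edgeR's exact test called 0 members in all 3 intervals. The share of all genes called was not computed for either of these tests. By the quasi-likelihood test with TMM few genes of any kind were called there. From E18.5 to PN2 0.0178% rose and 0.0118% fell. The shares were 0.0178% and 0.0% from PN14 to PN28, and 0.16% and 0.361% from PN28 to adult.

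Counted by size alone, with 0.5 CPM added and no test, 8 of the 10 genes were at least 2-fold higher at PN14 than at PN2 and 0 were lower, where 10.9% and 8.67% of all genes tested were. There were 4 when PN14 replicate 1 was left out and 8 when replicate 2 was. The same 2-fold counts were 8 higher and 0 lower from PN2 to PN28 (13.7% and 11.8% of all genes) and 8 higher and 1 lower from E18.5 to adult (19.6% and 19.1%). They were 2 higher (Actn3 and Tcap) and 0 lower from E18.5 to PN2 (1.27% and 0.883%), 1 higher (Tcap) and 0 lower from PN14 to PN28 (1.18% and 0.924%), and 0 in either direction from PN28 to adult (1.85% and 4.74%). The median log2 fold change of the 10 genes from PN2 to PN28 was 1.96, beside -0.04 over all genes tested, and 1.08 beside -0.92 with library size alone.

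**Figure D2:**
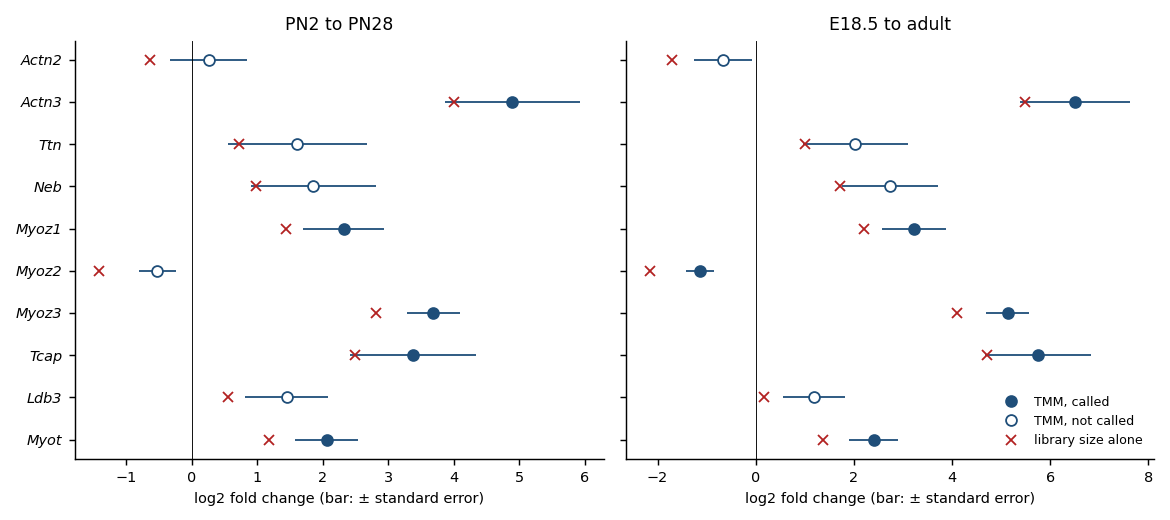
Log2 fold change of each gene from PN2 to PN28 (left) and from E18.5 to adult (right), with bars of ± 1 SE; filled circles are called with TMM, open circles are not, and crosses give the value with library size alone. Every cross lies to the left of its circle, and the cross of Actn2 from PN2 to PN28 lies on the other side of 0.

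The alpha-actinins exchanged places. Actn3, the fast-fibre alpha-actinin (chr19:4861223-4877909, mm9, minus strand), had 61.28 FPKM at E18.5, 157.74 at PN2, 1782.88 and 1359.38 at PN14, 2532.39 at PN28 and 2735.55 in adult muscle. Both PN14 libraries lay far above PN2 and below PN28. It rose by 4.0 on the log2 scale from PN2 to PN14 (SE 0.948, edgeR's quasi-likelihood test, Benjamini-Hochberg adjusted p = 0.0273), by 4.89 from PN2 to PN28 (SE 1.03, adjusted p = 0.0197) and by 6.51 from E18.5 to adult (SE 1.12, adjusted p = 0.00523). The 1.36 from E18.5 to PN2 was not called (adjusted p = 0.947), whereas it was with library size alone (adjusted p = 0.00968).

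Actn2, the alpha-actinin of all fibres (chr13:12361693-12433027, minus strand), had 762.74 FPKM at E18.5, 730.33 at PN2, 804.89 and 766.09 at PN14, 473.11 at PN28 and 235.48 in adult muscle. The levels up to PN14 sat close together, and the adult library was the lowest. With TMM its log2 fold change from E18.5 to adult was -0.67 (SE 0.585, edgeR's quasi-likelihood test, Benjamini-Hochberg adjusted p = 0.366), and with library size alone it was -1.70 and called (adjusted p = 1.6e-05). From PN2 to PN28 even the direction rested on the scaling, with 0.26 by TMM and -0.63 by library size.

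Within a library the ratio of these 2 genes does not depend on scaling. Actn3 to Actn2 was 0.0803 at E18.5, 0.216 at PN2, 2.22 and 1.77 at PN14, 5.35 at PN28 and 11.6 in adult muscle. Both PN14 libraries were thus on the other side of 1 from PN2, and Actn3 went from 7.44% to 92.1% of the FPKM of the pair. The log2 ratio moved by 3.20 between PN2 and PN14, or by 3.04 and 3.36 with either PN14 library alone. The remaining alpha-actinins, Actn1 and Actn4, of non-muscle cells and smooth muscle, held 2.27% and 7.77% of the alpha-actinin FPKM at E18.5 and 0.102% and 0.446% in the adult. Both fell from E18.5 to adult, by 1.74 (SE 0.249, edgeR's quasi-likelihood test, Benjamini-Hochberg adjusted p = 0.00299) and by 1.39 (SE 0.31, adjusted p = 0.0124) on the log2 scale. The fibroblast and smooth muscle marker sums were lower in the adult as well, 515.9 against 6086.5 and 54.2 against 318.5 FPKM. With TMM 5 of 6 fibroblast and 2 of 4 smooth muscle markers fell, where 23.6% of all genes fell. The smooth muscle markers Myh11 (0.05) and Tagln (-0.34) were not called. The part of these cell types in the values of Actn1 and Actn4 was not tested.

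Whether reads of one alpha-actinin could be counted on the other was looked at in the coding sequence. Those of Actn2 and Actn3 in GENCODE M1 were 75.7% identical over 2680 aligned bases, and their longest identical run was 51 bases, shorter than the sequenced reads. The 250 bases upstream of the start of the transcript with the longest coding sequence are shown for both, since this is the pair with the greatest exchange, as mm9 reference on the minus strand at chr13:12433028-12433277 for Actn2 and chr19:4877910-4878159 for Actn3. On both strands the windows were searched for the MEF2 motif, written as CTANNNNTAG. The E-box was searched as CAGCTG. The last motif was the TATA box, searched as TATAAA. Neither window held any of these, and so neither has capitals.
Actn2: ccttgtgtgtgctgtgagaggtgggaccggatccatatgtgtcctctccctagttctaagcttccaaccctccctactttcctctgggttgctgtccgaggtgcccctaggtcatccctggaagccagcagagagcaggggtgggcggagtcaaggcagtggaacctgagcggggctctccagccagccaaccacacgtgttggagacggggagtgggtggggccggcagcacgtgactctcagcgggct
Actn3: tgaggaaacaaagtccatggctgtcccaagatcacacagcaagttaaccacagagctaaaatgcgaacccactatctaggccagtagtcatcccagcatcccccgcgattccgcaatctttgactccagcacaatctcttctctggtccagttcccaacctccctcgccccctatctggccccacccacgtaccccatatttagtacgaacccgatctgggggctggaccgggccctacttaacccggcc

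**Figure D3:**
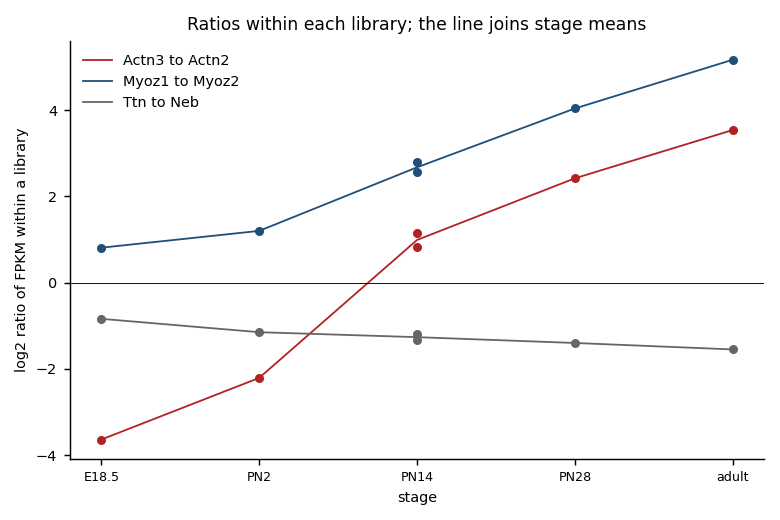
Log2 of the FPKM ratio within each library for Actn3 to Actn2, Myoz1 to Myoz2 and Ttn to Neb against stage, with a point per library and a line through the stage means. Actn3 to Actn2 crosses 0 between PN2 and PN14, Myoz1 to Myoz2 stays above 0 and climbs at every stage, and Ttn to Neb stays below 0.

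The myozenins moved apart in a similar way. Myoz1, the main myozenin of fast fibres (chr14:21468324-21475762, minus strand), had 441.38 FPKM at E18.5, 592.02 at PN2, 1354.16 and 1155.27 at PN14, 1602 at PN28 and 2026.36 in adult muscle. Every older stage was above every younger one. It rose by 2.32 on the log2 scale from PN2 to PN28 (SE 0.622, edgeR's quasi-likelihood test, Benjamini-Hochberg adjusted p = 0.0363) and by 3.22 from E18.5 to adult (SE 0.646, adjusted p = 0.00861). The 1.76 from PN2 to PN14 missed the threshold (SE 0.56, adjusted p = 0.0598).

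Myoz2, the myozenin of slow fibres and heart (chr3:122709124-122737908, minus strand), had 251.76 FPKM at E18.5, 258.02 at PN2, 195.15 and 196.09 at PN14, 97.34 at PN28 and 56.3 in adult muscle. The PN14 libraries were almost equal, and both later libraries lay below them. Myoz2 fell by 1.13 on the log2 scale from E18.5 to adult (SE 0.285, edgeR's quasi-likelihood test, Benjamini-Hochberg adjusted p = 0.0186), the only member to fall with TMM. From PN2 to PN14 its value was 0.27 and, when only library size was used, -0.40, neither of them called. From PN2 to PN28 it was -0.52 and not called with TMM (SE 0.282, adjusted p = 0.198), and -1.41 and called when only library size was used (adjusted p = 0.000774). Myoz1 to Myoz2 was 1.75 at E18.5, 2.29 at PN2, 6.94 and 5.89 at PN14, 16.5 at PN28 and 36.0 in adult muscle. Myoz2 made up 36.0% of the FPKM of the 3 myozenins at E18.5 and 2.57% in the adult, whereas Myoz1 went from 63.1% to 92.6%.

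The fibre-type myosins give the setting of this exchange. Myh4, the myosin heavy chain of the fastest fibres, had 43.9 FPKM at E18.5 and 12054.83 in the adult, and rose from E18.5 to adult by 9.13 on the log2 scale (SE 2.87, edgeR's quasi-likelihood test, Benjamini-Hochberg adjusted p = 0.0385). Myh1 and Myh2, of fast fibres, had 18.89 and 81.47 FPKM at E18.5 and 512.04 and 236.74 in the adult. Both were highest at PN14, with 1237.92 and 1376.86 FPKM for Myh1 and 762.6 and 581.74 for Myh2. Myh7, the slow myosin, had 207.41 FPKM at E18.5, 219.91 at PN2, 403.44 and 363.21 at PN14, 136.57 at PN28 and 115.33 in adult muscle. It was thus highest at PN14. Of the 6 slow fibre markers 1 rose and 1 fell from E18.5 to adult with TMM (median -0.18), and of the 7 fast ones 4 rose and 0 fell (median 3.25), where 21.4% of all genes rose and 23.6% fell. When only library size was used 0 slow markers rose and 3 fell (median -1.21), and 6 fast ones rose and 0 fell (median 2.22). With that scaling 7.98% of all genes rose and 45.6% fell, and the median over all genes was -1.08.

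The coding sequences of Myoz1 and Myoz2 were 58.7% identical, with a longest identical run of 12 bases. Their upstream windows, again 250 bases of the mm9 minus strand, are shown because the pair diverged and only that of Myoz2 held a match to the motifs as written above. Other forms of these motifs were not searched. They lie at chr14:21475763-21476012 for Myoz1 and chr3:122737909-122738158 for Myoz2. Capitals mark in Myoz2 a match to the MEF2 motif, CTATATATAG, starting at -30 and an E-box, CAGCTG, starting at -9 from the transcript start, which do not overlap. Of the 22594 windows of coding genes, 3.08% held the MEF2 motif, 12.1% this E-box and 12.6% TATAAA. The match is one of letters and was not tested for binding.
Myoz1: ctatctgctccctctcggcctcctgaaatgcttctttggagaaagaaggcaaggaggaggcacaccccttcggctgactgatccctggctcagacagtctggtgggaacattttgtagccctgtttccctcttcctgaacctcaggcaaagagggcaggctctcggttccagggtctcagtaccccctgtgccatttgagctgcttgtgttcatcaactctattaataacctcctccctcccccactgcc
Myoz2: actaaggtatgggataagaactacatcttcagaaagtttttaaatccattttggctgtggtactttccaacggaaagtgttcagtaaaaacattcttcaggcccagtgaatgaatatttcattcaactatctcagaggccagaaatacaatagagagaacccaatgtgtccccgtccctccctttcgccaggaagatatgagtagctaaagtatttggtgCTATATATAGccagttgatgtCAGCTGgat

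Among the remaining members, Myoz3 and Myot held the E-box, starting at -59 and at -37, and the windows of Ttn, Neb, Tcap and Ldb3 held none of the 3 motifs.

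Myoz3, a myozenin known from fast fibres, was the least abundant member in every library but that of the adult. It had 6.1 FPKM at E18.5, 9.8 at PN2, 62.62 and 49.84 at PN14, 68.52 at PN28 and 104.96 in adult muscle. Both PN14 libraries were far above PN2. It rose by 3.20 on the log2 scale from PN2 to PN14 (SE 0.376, edgeR's quasi-likelihood test, Benjamini-Hochberg adjusted p = 0.00572), by 3.69 from PN2 to PN28 (SE 0.406, adjusted p = 0.00672) and by 5.13 from E18.5 to adult (SE 0.435, adjusted p = 0.00124). Its share of the myozenin FPKM was 0.872% at E18.5 and 4.8% in the adult, so that it passed Myoz2 in the adult library.

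Titin and nebulin, the giant proteins, had large standard errors beside their differences between stages. These errors do not follow the gap between the PN14 libraries of a gene alone. Ttn and Myoz3 had PN14 gaps of 0.61 and 0.59 on the log2 scale with TMM. Their SEs from PN2 to PN14 were 0.943 and 0.376. Ttn (chr2:76542037-76820604, minus strand, 347 exons) had 55.67 FPKM at E18.5, 66.09 at PN2, 101.39 and 79.49 at PN14, 109.09 at PN28 and 111.36 in adult muscle. Its count ranged from 726389 to 1338375, the highest among the 10 genes in every library, since its transcript is long. The log2 fold change from E18.5 to adult was 2.03 (SE 1.07, edgeR's quasi-likelihood test, Benjamini-Hochberg adjusted p = 0.156), and this test called it in none of the 6 comparisons. Neb (chr2:51992167-52194318, minus strand, 157 exons) had 99.55 FPKM at E18.5, 146.98 at PN2, 254.71 and 182.45 at PN14, 288.76 at PN28 and 326.96 in adult muscle. Its 2.74 from E18.5 to adult also missed the threshold (SE 0.981, edgeR's quasi-likelihood test, Benjamini-Hochberg adjusted p = 0.0569). With library size alone both were called from E18.5 to adult, at 1.0 and 1.72 on the log2 scale (adjusted p = 0.0067 and 4.91e-06). The Wald test of DESeq2 and the exact test of edgeR called both genes from PN2 to PN14, from PN2 to PN28 and from E18.5 to adult.

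The ratio of Ttn to Neb was 0.559 at E18.5, 0.45 at PN2, 0.398 and 0.436 at PN14, 0.378 at PN28 and 0.341 in adult muscle. Nebulin was the more abundant per length in every library. From PN2 to PN14 the log2 ratio moved by -0.11, less than the gap between the PN14 libraries, which stood at -1.33 and -1.20.

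Tcap, the titin cap telethonin (chr11:98245125-98246267, plus strand, 2 exons), covered the second widest range of the group. It had 130.51 FPKM at E18.5, 383 at PN2, 1259.06 and 451.5 at PN14, 2157.8 at PN28 and 3440.68 in adult muscle, where it was the most abundant of the 10 genes. The PN14 libraries differed by 2.79-fold, the widest gap among the members, and replicate 2 sat close to PN2. Tcap rose by 3.38 on the log2 scale from PN2 to PN28 (SE 0.96, edgeR's quasi-likelihood test, Benjamini-Hochberg adjusted p = 0.0423) and by 5.75 from E18.5 to adult (SE 1.07, adjusted p = 0.00683). The call from PN2 to PN28 was lost with DESeq2's Wald test (adjusted p = 0.0921) and with a filter of a mean of 1 CPM (adjusted p = 0.0525). From PN2 to PN14 the value was 1.88 (SE 0.833, adjusted p = 0.133), with 2.51 in replicate 1 and 0.77 in replicate 2. The ratio of Tcap to Ttn, its binding partner, was 2.34 at E18.5 and 30.9 in the adult, with 12.4 and 5.68 in the PN14 libraries.

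The PN14 libraries differed in the same direction for the whole group. Replicate 1 was higher than replicate 2 in 10 of 10 genes with TMM, by 0.25 for Myoz2 to 1.74 for Tcap on the log2 scale, and 48.1% of all genes tested were higher in replicate 1. Among the 1482 genes with a mean of at least 100 CPM the share was 67.8%. Tcap was the only member that differed by at least 2-fold, as did 1.44% of all genes. The summed FPKM of 4 Schwann cell markers was 213.6 in replicate 1 and 851.4 in replicate 2. Endothelial (154.2 and 229.8) and smooth muscle markers (153.7 and 268.6) were also higher in replicate 2. Skeletal fibre (57922.2 and 45887.3) and erythroid markers (946.0 and 530.5) were higher in replicate 1. The part of these cell types in the values of the members was not tested.

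Ldb3 (chr14:35339885-35401867, minus strand) encodes a PDZ-LIM protein that holds alpha-actinin at the Z-disc. It had 503.46 FPKM at E18.5, 547.38 at PN2, 1198.25 and 957.87 at PN14, 1107.97 at PN28 and 775.45 in adult muscle. The level was highest around PN14 and PN28, and the adult lay between these and the early stages. Its log2 fold change was 1.24 from PN2 to PN14 (SE 0.57, edgeR's quasi-likelihood test, Benjamini-Hochberg adjusted p = 0.146) and 1.18 from E18.5 to adult (SE 0.629, adjusted p = 0.158), and this test called Ldb3 in none of the 6 comparisons. The Wald test of DESeq2 and the exact test of edgeR did call it, from PN2 to PN14 (adjusted p = 0.000445 and 0.00812), from PN2 to PN28 (0.000322 and 0.00461) and from E18.5 to adult (0.00277 and 0.015).

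Count and FPKM of Ldb3 did not move together. Its count was 222717 at E18.5 and 224412 in the adult, close to equal, while the FPKM was higher in the adult. The quotient of count and FPKM gives the effective transcript length that RSEM used, which is an average over the isoforms it assigned reads to. For Ldb3 this implied length was 2802 bases at E18.5, 2766 at PN2, 2015 and 2148 at PN14, 2015 at PN28 and 2028 in adult muscle. Both PN14 libraries lay well below PN2 and near the later stages. The implied length was 28.2% shorter at PN14 replicate 1 than at E18.5 and 27.7% shorter in the adult. Of 5554 genes with enough reads, 3 at PN14 replicate 1, 4 at PN14 replicate 2, 5 at PN28 and 9 in adult muscle moved at least as far from E18.5 as Ldb3, itself included. In the other 9 members the implied length stayed within 0.4% of E18.5. GENCODE M1 lists coding transcripts of Ldb3 of 1623, 4854, 4908, 4954 and 5040 bases, and the RefSeq models that RSEM was run on were not analysed here, so no isoform share was computed.

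**Figure D4:**
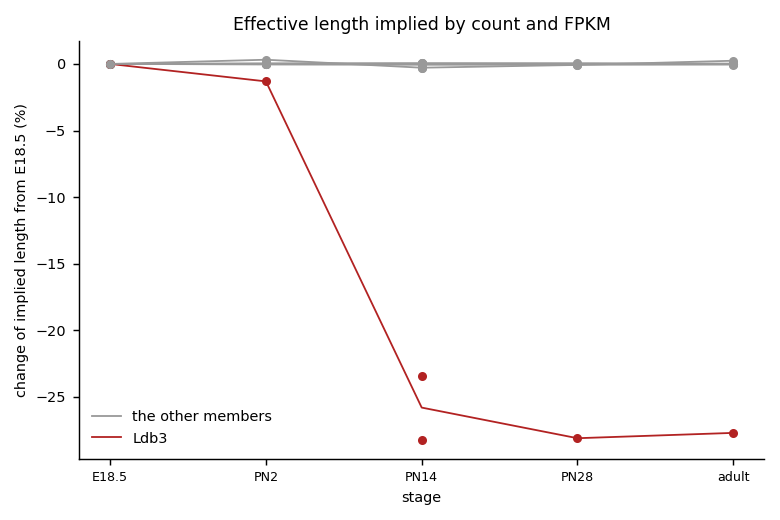
Change of the implied effective length from E18.5 in percent against stage for the 10 genes, with a point per library and a line through the stage means. Ldb3 drops between PN2 and PN14, and the grey points of the other 9 genes lie on 0.

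Myot, the gene of myotilin, which cross-links actin and alpha-actinin, had 176.86 FPKM at E18.5, 223.04 at PN2, 462.83 and 438.55 at PN14, 504.3 at PN28 and 458.69 in adult muscle. The libraries from PN14 on were close to each other and about equally far from PN2. Myot rose by 1.68 on the log2 scale from PN2 to PN14 (SE 0.439, edgeR's quasi-likelihood test, Benjamini-Hochberg adjusted p = 0.035), by 2.06 from PN2 to PN28 (SE 0.485, adjusted p = 0.026) and by 2.40 from E18.5 to adult (SE 0.491, adjusted p = 0.00931). From PN28 to adult it moved by 0.00 in TMM units and by -0.14 when only library size was used.

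The order of the members by level turned over. At E18.5 it ran from Actn2 (762.74 FPKM) through Ldb3 (503.46) and Myoz1 (441.38) down to Ttn (55.67) and Myoz3 (6.1), with Actn3 eighth. In the adult Tcap (3440.68), Actn3 (2735.55) and Myoz1 (2026.36) led, and Myoz2 (56.3) came last. At PN14, the stage with a spread, Actn3 was 1571.1 ± 299.5 FPKM (SD, n = 2) and Myoz1 1254.7 ± 140.6. Actn3 was higher in both libraries, while the intervals of these neighbours overlapped. The genes were measured in the same libraries, so an overlap of such intervals does not settle their order. Ldb3 with 1078.1 ± 170.0 and Tcap with 855.3 ± 571.0 followed, and their intervals overlapped too. Ttn (90.4 ± 15.5) and Myoz3 (56.2 ± 9.04) stood at the lower end without overlap.

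Genes that bind these proteins were followed from fixed lists. Of 18 Z-disc partners 6 rose and 0 fell from PN2 to PN28 with TMM (median 1.09 on the log2 scale), where 14.3% of all genes rose and 12.7% fell. Library size as the only scaling gave 4 that rose and 1 that fell, Csrp3 (-1.66), and a median of 0.20. With that scaling 5.05% of all genes rose and 37.3% fell, with a median of -0.92. Xirp2, an actin-binding repeat protein, rose by 4.40 (SE 0.72, edgeR's quasi-likelihood test, Benjamini-Hochberg adjusted p = 0.0111), Pdlim7, a PDZ-LIM relative of Ldb3, by 2.33 (SE 0.44, adjusted p = 0.0152) and Synpo2, an actin-bundling protein, by 1.82 (SE 0.409, adjusted p = 0.0232), a call that was lost at 0.93 when only library size was used. Of 12 titin partners 6 rose and 1 fell (median 1.51), or 5 and 2 when only library size was used (median 0.63). Ankrd23 and Ankrd2, ankyrin-repeat proteins of the titin spring, rose by 6.20 and 2.46 (SE 0.952 and 0.645, edgeR's quasi-likelihood test, Benjamini-Hochberg adjusted p = 0.0101 and 0.0345), and Trim63, a ubiquitin ligase that binds titin, by 2.40 (SE 0.4, adjusted p = 0.0115). Ankrd23 had 14.1 FPKM at E18.5, 33.87 at PN2 and 1345.5 at PN28. Ankrd2 reached 92.63 FPKM at PN28, but its adult level of 20.79 lay below those of PN2 (31.17) and E18.5 (64.03). Its PN14 libraries stood apart, with 120.4 FPKM in replicate 1 and 53.83 in replicate 2. Between E18.5 and adult Ankrd2 moved by -0.6 with TMM (SE 0.615, edgeR's quasi-likelihood test, Benjamini-Hochberg adjusted p = 0.443). When only library size was used this value was -1.62 and called.

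Of 11 partners of nebulin and of the thin-filament ends 3 rose and 0 fell from PN2 to PN28 with TMM (median 0.55), against 14.3% and 12.7% of all genes. When only library size was used 1 rose and 2 fell (median -0.34), against 5.05% and 37.3% of all genes (median -0.92). The 3 that rose were Tmod4, a tropomodulin that caps pointed ends (2.40, SE 0.373, edgeR's quasi-likelihood test, Benjamini-Hochberg adjusted p = 0.0102), and the capping protein subunits Capza2 (1.74, SE 0.317, adjusted p = 0.0142) and Capzb (1.17, SE 0.299, adjusted p = 0.0325), which cap barbed ends in the Z-disc. When only library size was used Tmod4 remained called, and Capza2 (0.85) and Capzb (0.28) were under 2-fold. Nebl, the paralog of Neb, lay between 0.09 and 0.23 FPKM, on counts of only 39 to 102. It rose by 1.62 from PN2 to PN14 (SE 0.455, edgeR's quasi-likelihood test, Benjamini-Hochberg adjusted p = 0.0428). With library size alone this value was 0.97 and not called. All 4 listed genes of calcineurin, the phosphatase that myozenins bind, rose from PN2 to PN28 with TMM (median 1.43), where 14.3% of all genes rose. With library size alone 1 of them was called as higher, beside 5.05% of all genes.

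**Figure D5:**
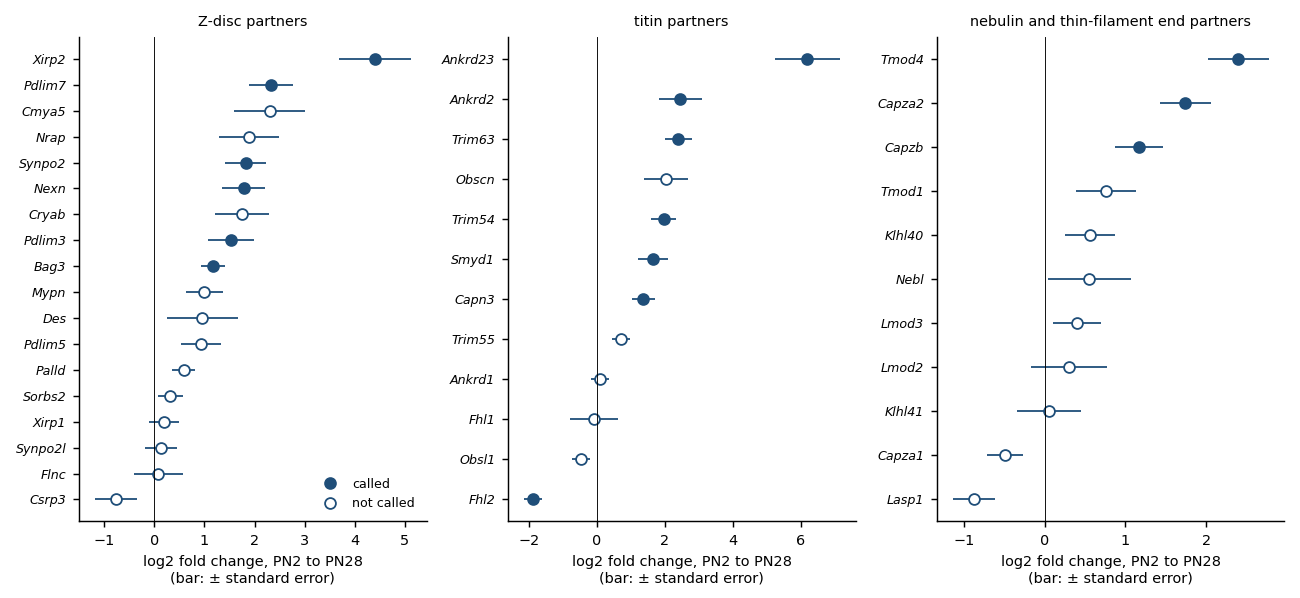
Log2 fold change from PN2 to PN28 of the genes in the lists of Z-disc partners, titin partners, and nebulin and thin-filament end partners, with bars of ± 1 SE; filled circles are called and open ones are not. With TMM most circles lie to the right of 0, with Ankrd23 and Xirp2 furthest right and Fhl2 the only gene called on the left. With library size alone the median of the third list is below 0 (-0.34), and that of all genes tested is -0.92.

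The profiles most like those of 3 members were sought over the 6 libraries among 8840 genes with a mean of at least 10 CPM, by the root mean square difference of centred log2 values. For Actn3 they were Ano5 (0.14), Hr (0.24), Phkg1 (0.25), Smco1 (0.29) and Kcna7 (0.29), and the nearest member was Myoz3 (0.64). For Myoz2 they were Ier2 (0.06), Nedd9 (0.13), Sema6a (0.16), Npr3 (0.16) and Lsm7 (0.18), with Actn2 as the nearest member (0.27). For Tcap they were 9530091C08Rik (0.36), Me1 (0.38), Pfkfb1 (0.41), Lrrc2 (0.43) and Thrb (0.43), with Myoz3 as the nearest member (0.69). Ttn and Neb were each other's nearest member (0.22).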

How the data were processed

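Poly(A) RNA of gastrocnemius was sequenced in 6 libraries. The authors aligned reads to mm9 with TopHat2 2.0.5 and ran RSEM (version not given in the sources used here) on RefSeq genes. The deposited table holds expected counts, not normalized, and FPKM values, which the authors scaled to gene length and library. Strandedness is not given in the sources used here, so overlapping antisense reads cannot be told apart. The expected counts, deposited as whole numbers, were rounded and fitted in R 4.3.3 with edgeR 4.0.16 (TMM, filterByExpr, quasi-likelihood test) over all libraries, with the 5 stages as groups, which left 1 residual degree of freedom. The biological coefficient of variation was 0.188. The fit also drew the spread of each gene towards that of other genes, with a median of 4.857 prior degrees of freedom. An SE is thus not the spread of that gene alone. The p-values were adjusted by Benjamini-Hochberg within each of 6 comparisons. SE is the absolute log2 fold change over the square root of F. Counting error depends on the count of each gene. It is small for the members, whose lowest count was 3227, for Myoz3 at E18.5, and larger for Nebl with counts of 39 to 102. The fit was tested on simulated data. Alternatives were library size alone, DESeq2 1.42.0 size factors and Wald test, edgeR's exact test, other filters and each PN14 library left out. Genomic positions come from GENCODE M1 on mm9. All members were named, and the 3 called genes with the largest change from PN2 to PN28 in each partner list, while Csrp3 and Fhl2 were named after their values were seen. Members and lists were chosen with earlier results of these data known. Proteins were not used here.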

Additional observations from a re-analysis of the deposited data

How the results depend on the processing

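Of the tested values of single members under the alternatives, 321 kept direction and side of the threshold, 33 passed it newly, 2 lost it and 4 turned direction. Of the untested values without a PN14 library, 39 kept direction and 1 turned. With library size alone the turned values were -0.40 for Myoz2 from PN2 to PN14, -0.63 for Actn2 from PN2 to PN28, -0.14 for Myot from PN28 to adult and 0.0 for Ldb3 from PN14 to PN28. Ldb3 from PN14 to PN28 ran from -0.03 to 0.48 when either PN14 library was left out. The number of members called went from 0 to 2 (E18.5 to PN2), from 3 to 5 (PN2 to PN14) and from 0 to 1 (PN14 to PN28) with library size alone. That scaling called 854 of the 16882 genes tested as higher and 4971 as lower from PN2 to PN14. The number of members went to 1 (E18.5 to PN2) and 7 (PN2 to PN14) with DESeq2's Wald test. With edgeR's exact test it went to 8 both at PN14 and at PN28 against PN2. From E18.5 to adult both tests also called Ttn, Neb and Ldb3. Shares of all genes were not computed for the Wald and exact tests. Members at least 2-fold apart numbered 5 (PN2 to PN14), 2 (PN14 to PN28) and 1 (PN28 to adult) with library size alone. Without PN14 replicate 1 or 2 they numbered between 4 and 8 from PN2 to PN14 and between 0 and 3 from PN14 to PN28. The cause of these moves was not tested. Leaving out a PN14 library left no residual degrees of freedom, so these values have no test. No paired analysis was possible because only PN14 has replicate numbers. With 1 library at 4 of 5 stages, differences between animals cannot be separated from stage.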
